A study of Arabidopsis thaliana with 2 samples.

Results

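Transcripts of 43 auxin response genes were measured in developing Arabidopsis thaliana seeds: 29 genes of the Aux/IAA family of transcriptional repressors and 14 genes of auxin response factors (ARFs). They were chosen by gene identifier, and all 43 were among the 33602 gene models listed. One library came from plants with the construct labelled OLEOp:GmPSKγ1, a soybean gene for a precursor of the sulfated peptide hormone phytosulfokine. The other came from OLEOp:GmPSKγ1tc plants, named by the submitters as the control, so both groups carry a construct with a promoter labelled OLEOp. Both were seeds of 10 DAP (the age as labelled), and each genotype was 1 library of RNA pooled from 3 individual lines. The spread between lines is therefore not known, no test of the genotypes is possible, and a difference below has no replicate check.

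Auxin acts by removing repressors. Aux/IAA proteins bind ARFs at auxin-responsive genes and recruit TOPLESS corepressors. Auxin joins an Aux/IAA protein to an F-box receptor of the TIR1 family, through a short segment called the degron, and the repressor is then destroyed. Many Aux/IAA genes are themselves switched on by auxin, so their transcripts are often read as a measure of the response. In seeds, auxin is known for patterning the embryo, where ARF5 (MONOPTEROS) and its repressor IAA12 (BODENLOS) set up the root pole, and for endosperm and seed coat growth.

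Values are FPKM, reads per kilobase of gene model scaled to library size, so levels may be compared between genes. From the steps between low values, FPKM rest on about 16.4 M reads in GmPSKγ1 and 15.3 M reads in GmPSKγ1tc. A gene was compared where its mean over both libraries reached 1 FPKM, as the log2 ratio of FPKM + 1, GmPSKγ1 over GmPSKγ1tc. A ratio without the added 1 is given with a 95% counting interval, from reads estimated for each gene. The interval covers counting error only and not the spread between plants or library preparations. In bulk seeds, fewer cells of a type and less RNA per cell cannot be told apart.

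Both families were present at similar levels in the libraries. The Aux/IAA genes summed to 468.1 FPKM in GmPSKγ1 and 441.5 FPKM in GmPSKγ1tc, and the 14 ARF genes to 216.8 FPKM in GmPSKγ1 and 215.7 FPKM in GmPSKγ1tc. Of the 29 Aux/IAA genes, 22 reached a mean of 1 FPKM, as did 14 of 14 ARF members and 1 of 9 other ARF genes. The median log2 ratio was 0.02 over the 22 Aux/IAA genes (13 higher, 9 lower) and about 0 over the ARFs (-0.002, with 7 higher and 7 lower). It was 0.05 over all 17816 genes compared, of which 10320 were higher and 7496 lower. At least 1.5-fold higher in GmPSKγ1 was 1 Aux/IAA gene, IAA27, and at least 1.5-fold lower was also 1, IAA17. Neither threshold was passed by an ARF gene. Over all genes, 3.13% were at least 1.5-fold higher and 2.68% at least 1.5-fold lower, 5.81% in all. Both called members were among the 18 with a mean from 1 to below 10 FPKM, a range in which 4.41% of all genes were higher and 3.65% lower by that size, 8.07% in all. None of the 18 members at 10 FPKM or more was called, where the shares over all genes were 2.07% higher and 1.89% lower, 3.96% in all. The counts of 1 in 36 members in each direction are near the background, so neither family stood out by its calls.

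**Figure D1:**
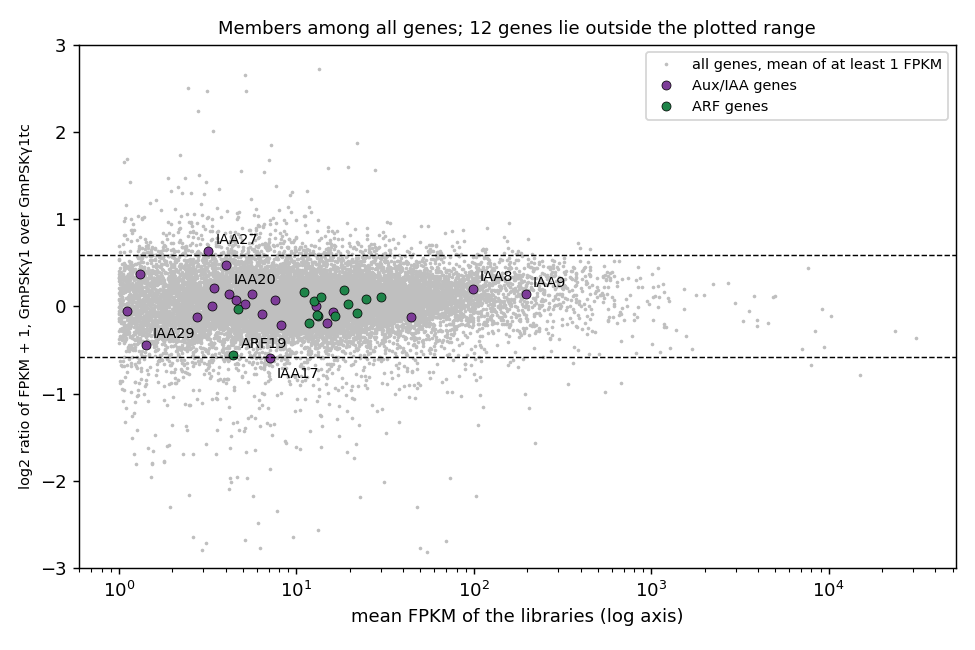
Log2 ratio of FPKM + 1 (GmPSKγ1 over GmPSKγ1tc, vertical axis) against the mean FPKM of the libraries (horizontal log axis). Grey points are the 17816 genes that reached a mean of 1 FPKM, coloured points the 22 Aux/IAA and 14 ARF genes, and dashed lines mark 1.5-fold; of the members, IAA27 lies above the upper line, IAA17 on the edge of the lower one, and ARF19 just inside it, and 12 other genes lie outside the plotted range.

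The Aux/IAA family was dominated by a pair of related genes. IAA9 (AT5G65670) had 205.8 FPKM in GmPSKγ1 and 186.9 FPKM in GmPSKγ1tc, 44.0% and 42.3% of the family's FPKM. IAA8 (AT2G22670) followed with 105.9 FPKM in GmPSKγ1 and 91.8 FPKM in GmPSKγ1tc. Together they took 66.6% of the family in GmPSKγ1 and 63.1% in GmPSKγ1tc. Both encode long Aux/IAA proteins that form a clade with IAA27, and loss of IAA9 function in tomato is known to give fruit without fertilization. The third most abundant gene was IAA31 (AT3G17600), at 42.3 FPKM in GmPSKγ1 and 46.0 FPKM in GmPSKγ1tc. The other 26 genes had at most 16.6 FPKM in either library.

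Members of this clade were all higher in GmPSKγ1, as were 10320 of the 17816 genes compared. IAA27 (AT4G29080), first found as a phytochrome-associated protein, had 4.11 FPKM in GmPSKγ1 and 2.30 FPKM in GmPSKγ1tc, on 90 and 47 reads, a ratio of 1.79 (counting interval 1.24 to 2.60). On the scale of log2(FPKM + 1) this was 0.63. The ratio was 1.15 for IAA8 (1.10 to 1.21) and 1.10 for IAA9 (1.06 to 1.14). The margins of IAA8 and IAA9 are of the size by which the libraries' scaling may shift: with the 50 most abundant genes left out of the scaling, their log2 ratios were 0.12 and 0.06, in place of 0.20 and 0.14. The same scaling gave IAA27 a log2 ratio of 0.57, inside 1.5-fold. Without IAA8 and IAA9, the family summed to 156.4 FPKM in GmPSKγ1 and 162.8 FPKM in GmPSKγ1tc.

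**Figure D2:**
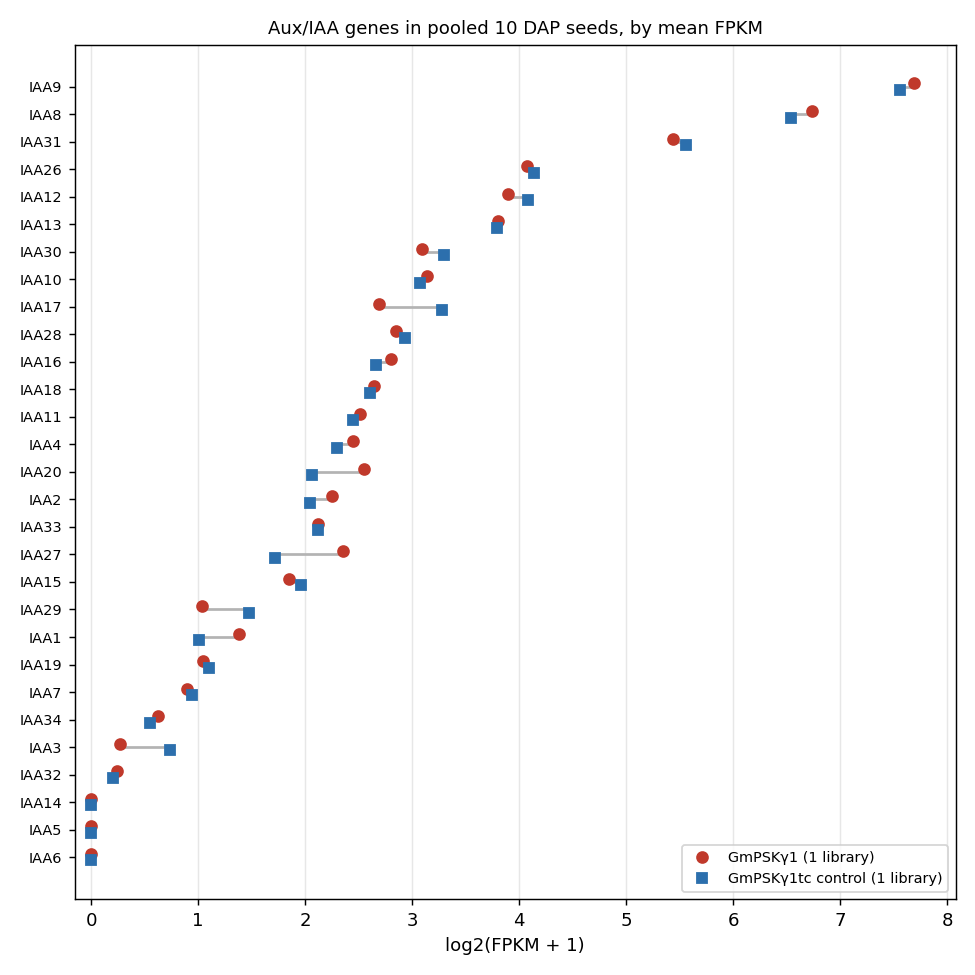
Level of each of the 29 Aux/IAA genes as log2(FPKM + 1), ordered by mean FPKM, in GmPSKγ1 (circles) and in the GmPSKγ1tc control (squares), 1 library each. IAA9, IAA8 and IAA31 stand above the rest in both libraries, IAA27, IAA20 and IAA1 have their circle clearly to the right of the square, and IAA17, IAA29 and IAA3 to the left.

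The coding sequence of the degron core shows how repressors differ in the part that auxin receptors read. Below are the 5 codons of the core in capitals, with 15 bases on each side, read on the coding strand of the RefSeq genome (TAIR10.1). IAA9 and IAA17 are shown as genes with the complete core, IAA8, IAA27 and IAA12 as genes whose last codon encodes another amino acid.
IAA9 (chr5:26255113-26255127, plus strand, coordinates of the core): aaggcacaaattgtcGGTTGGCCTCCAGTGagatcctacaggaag
IAA17 (chr1:1136947-1136961, plus strand): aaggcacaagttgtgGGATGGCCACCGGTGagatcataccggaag
IAA8 (chr2:9637734-9637748, plus strand): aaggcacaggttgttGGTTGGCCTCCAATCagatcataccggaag
IAA27 (chr4:14324660-14324674, minus strand): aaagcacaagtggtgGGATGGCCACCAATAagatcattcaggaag
IAA12 (chr1:1241067-1241081, plus strand): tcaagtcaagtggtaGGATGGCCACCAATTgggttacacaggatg

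The core is glycine, tryptophan, proline, proline and valine. As amino acids, it was complete in the coding sequence of 17 Aux/IAA genes. In 6 the first 4 amino acids matched and the last did not (IAA8, IAA10, IAA11, IAA12, IAA13 and IAA27). In the other 6 (IAA20, IAA30, IAA31, IAA32, IAA33 and IAA34) the core was not found. Genes with the complete core summed to 260.0 FPKM in GmPSKγ1 and 244.7 FPKM in GmPSKγ1tc, and 12 of the 17 reached a mean of 1 FPKM, 6 higher and 6 lower. Those with another last amino acid summed to 149.3 FPKM in GmPSKγ1 and 134.8 FPKM in GmPSKγ1tc. Of these, 5 of 6 were higher, beside 10320 of all 17816 genes compared. IAA10, IAA11 and IAA13, among the higher ones, had log2 ratios of only 0.07, 0.07 and 0.01. Those without the core summed to 58.7 FPKM in GmPSKγ1 and 62.0 FPKM in GmPSKγ1tc. The median log2 ratio was -0.01 with the complete core, 0.07 with another last amino acid and -0.06 without the core.

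On the scale of FPKM + 1, IAA17 differed most among genes with the complete core that reached 1 FPKM, with a log2 ratio of -0.59. IAA17 (AXR3, AT1G04250), whose stabilised forms block root gravitropism, had 5.44 FPKM in GmPSKγ1 and 8.71 FPKM in GmPSKγ1tc, on 97 and 145 reads. Its ratio was 0.625 (counting interval 0.478 to 0.814), and 1.51-fold lower with the added 1. IAA17 (chromosome 1, 1136258 to 1138613) lies beside IAA3 (chromosome 1, 1128188 to 1129551), with 6706 bases and no listed model between them, on opposite strands. IAA3 (SHY2), which restrains root meristem growth, had 0.207 FPKM in GmPSKγ1 and 0.665 FPKM in GmPSKγ1tc, on 4 and 12 reads. Its counting interval, 0.0732 to 1.03, included 1, and it was below the 1 FPKM minimum.

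The genome holds 2 further neighbouring pairs of the same kind. IAA2 and IAA7, on chromosome 3 with 12878 bases and 1 listed model between them, differed in level but little between the libraries. IAA2 had 3.76 FPKM in GmPSKγ1 and 3.12 FPKM in GmPSKγ1tc (ratio interval 0.802 to 1.82), while IAA7 (AXR2) had 0.857 FPKM in GmPSKγ1 and 0.917 FPKM in GmPSKγ1tc. In the pair on chromosome 4, IAA14 (SOLITARY ROOT, a repressor of lateral root formation) was listed at 0 in both libraries. Its neighbour IAA1 had 1.60 FPKM in GmPSKγ1 and 1.01 FPKM in GmPSKγ1tc, on 22 and 13 reads, and the ratio interval of 0.762 to 3.42 included 1. In each pair, 1 gene was thus above 1 FPKM in both libraries and the other below.

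Several further genes with the complete core were low. IAA5 and IAA6 were listed at 0 in both libraries, and IAA19 (MASSUGU2, of hypocotyl bending) had 1.07 FPKM in GmPSKγ1 and 1.14 FPKM in GmPSKγ1tc. IAA29, known for its induction in shade, had 1.05 FPKM in GmPSKγ1 and 1.78 FPKM in GmPSKγ1tc, on 19 and 30 reads (ratio 0.588, interval 0.315 to 1.09). IAA4, a close relative of IAA3, had 4.44 FPKM in GmPSKγ1 and 3.91 FPKM in GmPSKγ1tc. IAA16 had 5.96 FPKM in GmPSKγ1 and 5.31 FPKM in GmPSKγ1tc, and IAA15 had 2.60 FPKM in GmPSKγ1 and 2.90 FPKM in GmPSKγ1tc; the intervals of all these ratios included 1.

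Repressors known from embryo patterning differed little. IAA12 had 13.9 FPKM in GmPSKγ1 and 16.0 FPKM in GmPSKγ1tc (ratio 0.867, interval 0.740 to 1.01), and its paralog IAA13 had 12.9 FPKM in GmPSKγ1 and 12.8 FPKM in GmPSKγ1tc; the model of IAA13 overlaps another. IAA10 had 7.83 FPKM in GmPSKγ1 and 7.40 FPKM in GmPSKγ1tc. IAA11 had 4.72 FPKM in GmPSKγ1 and 4.44 FPKM in GmPSKγ1tc. IAA18, which alters cotyledon development when stabilised, had 5.23 FPKM in GmPSKγ1 and 5.09 FPKM in GmPSKγ1tc. Its relatives IAA26, at 15.8 FPKM in GmPSKγ1 and 16.6 FPKM in GmPSKγ1tc, and IAA28, at 6.22 FPKM in GmPSKγ1 and 6.66 FPKM in GmPSKγ1tc, also had intervals that included 1.

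The genes without a degron core ranged from near 0 to the third place of the family. IAA31 is given above, with a ratio interval of 0.819 to 1.03. IAA30, a known target of the seed regulators LEC2 and AGL15, had 7.51 FPKM in GmPSKγ1 and 8.85 FPKM in GmPSKγ1tc (interval 0.647 to 1.12). IAA20 had 4.84 FPKM in GmPSKγ1 and 3.19 FPKM in GmPSKγ1tc, on 61 and 37 reads, a ratio of 1.52 (1.01 to 2.38). Transcripts of IAA20 and IAA30 share an identical run of 52 bases, the longest between any 2 of the 43 members. A read wholly within this run could not be told apart, but the read length is not given here. Summed, the pair had 12.36 FPKM in GmPSKγ1 and 12.04 FPKM in GmPSKγ1tc. IAA33 had 3.35 FPKM in GmPSKγ1 and 3.34 FPKM in GmPSKγ1tc, while IAA34, with 0.547 FPKM in GmPSKγ1 and 0.468 FPKM in GmPSKγ1tc, and IAA32, with 0.186 FPKM in GmPSKγ1 and 0.149 FPKM in GmPSKγ1tc, had at most 5 reads.

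The 14 ARF members lay closer together than the Aux/IAA genes. They ranged from 3.38 to 31.3 FPKM in GmPSKγ1 and from 4.73 to 29.0 FPKM in GmPSKγ1tc, and 12 of 14 were above 10 FPKM in each library. This holds for the members only. Of 9 other ARF genes, ARF2 had 50.8 FPKM in GmPSKγ1 and 58.0 FPKM in GmPSKγ1tc, above every member. The rest were below the 1 FPKM minimum. In 13 of the 14 ARF members the log2 ratio was within 0.2 of 0, that is 92.9%, beside 63.6% of the Aux/IAA genes and 57.8% of all genes compared. The limit of 0.2 was chosen after seeing the data, and ARF9 (-0.191) and ARF3 (0.187) lay just inside it. The median of the genes' mean FPKM was 13.5 for the ARFs, 5.40 for the compared Aux/IAA genes and 11.7 for all genes compared. Reads also depend on gene length. In GmPSKγ1 the ARF members had from 216 (ARF19) to 1299 reads (ARF11), and the compared Aux/IAA genes from 17 (IAA19) to 6115 (IAA9). Counting error spreads the ratio more where reads are few, and its part in these shares was not tested.

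**Figure D3:**
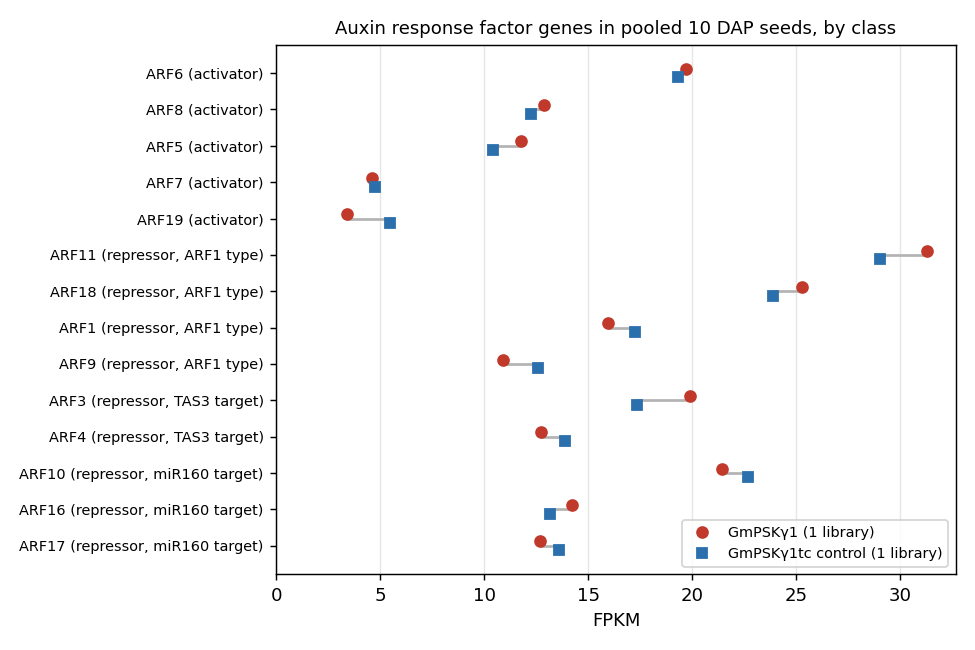
FPKM of the 14 ARF genes in GmPSKγ1 (circles) and in the GmPSKγ1tc control (squares), 1 library each, arranged by class and by mean within a class. Of these 14 genes, ARF11 and ARF18 are the highest and ARF7 and ARF19 the lowest in both libraries; the ARF19 circle, at 3.38 FPKM, lies left of its square at 5.45 FPKM.

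Activating ARFs, which have a glutamine-rich middle part, summed to 52.3 FPKM in GmPSKγ1 and 52.2 FPKM in GmPSKγ1tc. Of the 14 ARF members, ARF19 (AT1G19220) was the lowest in GmPSKγ1 and had the largest difference, with 3.38 FPKM in GmPSKγ1 and 5.45 FPKM in GmPSKγ1tc, on 216 and 325 reads. Its ratio was 0.621 (counting interval 0.520 to 0.740); with the added 1 its log2 ratio of -0.56 was just inside 1.5-fold, and it passed that size under each of the 3 rescalings of the libraries (-0.60, -0.62 and -0.59). ARF7, which acts redundantly with ARF19 in lateral root formation, had 4.61 FPKM in GmPSKγ1 and 4.73 FPKM in GmPSKγ1tc, and its model overlaps another. ARF5 (AT1G19850), the embryo patterning factor, had 11.8 FPKM in GmPSKγ1 and 10.4 FPKM in GmPSKγ1tc (ratio 1.13, interval 1.005 to 1.27). The lower bounds of ARF5 and of IAA20 were below 1 when the libraries were rescaled by their median ratio.

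ARF6 and ARF8, which promote flower maturation, are both targets of miR167. Printed below is the mature miRNA with its seed (bases 2 to 8) in capitals, followed by the site in each coding sequence, with bases outside Watson-Crick pairs with the miRNA in capitals.
miR167a-5p (chr3:8108090-8108110, plus strand): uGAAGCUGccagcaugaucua
ARF6 (chr1:10686478-10686498, minus strand): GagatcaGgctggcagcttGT
ARF8 (chr5:14633841-14633861, plus strand): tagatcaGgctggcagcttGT
The sites had 4 and 3 such bases of 21, where the best window of ARF2 and of each other ARF member had 7 or more. ARF6 had 19.7 FPKM in GmPSKγ1 and 19.3 FPKM in GmPSKγ1tc (interval 0.940 to 1.10). ARF8, which holds back fruit growth before fertilization, had 12.9 FPKM in GmPSKγ1 and 12.3 FPKM in GmPSKγ1tc (0.934 to 1.18).

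Repressing ARFs were the larger part of the family, 164.5 FPKM in GmPSKγ1 and 163.5 FPKM in GmPSKγ1tc over 9 genes. Of the ARF members, a pair most like ARF1 was the most abundant. ARF11 had 31.3 FPKM in GmPSKγ1 and 29.0 FPKM in GmPSKγ1tc, and ARF18, whose rapeseed relative is known to affect seed weight, had 25.3 FPKM in GmPSKγ1 and 23.9 FPKM in GmPSKγ1tc. These transcripts share an identical run of 38 bases. ARF1 had 16.0 FPKM in GmPSKγ1 and 17.3 FPKM in GmPSKγ1tc. ARF9 had 10.9 FPKM in GmPSKγ1 and 12.6 FPKM in GmPSKγ1tc, a ratio of 0.866 (counting interval 0.766 to 0.979).

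ARF10, ARF16 and ARF17 form the group cut by miR160, and loss of that cut is known to alter seed germination and leaf shape. Their sites are shown in the same way as those above.
miR160a-5p (chr2:16340282-16340302, plus strand): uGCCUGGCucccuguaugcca
ARF17 (chr1:29274189-29274209, plus strand): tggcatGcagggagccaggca
ARF10 (chr2:12115741-12115761, plus strand): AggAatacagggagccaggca
ARF16 (chr4:14704141-14704161, minus strand): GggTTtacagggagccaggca
The part opposite the seed is identical in the 3 genes, and the bases in capitals, 1 in ARF17, 2 in ARF10 and 3 in ARF16, lie opposite the 3′ part of the miRNA. A G:U pair accounts for 1 of them in ARF17 and 1 in ARF16. The best window of ARF2 and of each other ARF member had 8 or more. ARF10 had 21.4 FPKM in GmPSKγ1 and 22.7 FPKM in GmPSKγ1tc (interval 0.856 to 1.04). ARF16 had 14.2 FPKM in GmPSKγ1 and 13.1 FPKM in GmPSKγ1tc (0.957 to 1.23). ARF17 had 12.7 FPKM in GmPSKγ1 and 13.6 FPKM in GmPSKγ1tc (0.825 to 1.05). With the 50 most abundant genes left out of the scaling, the intervals of ARF10 and ARF17 lay below 1. The group as a whole had 48.4 FPKM in GmPSKγ1 and 49.5 FPKM in GmPSKγ1tc, with values on both sides of 1.

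ARF3 (ETTIN) and ARF4, which specify the lower face of organs, are targets of small interfering RNAs made from the noncoding transcript TAS3. A 21-base stretch of the strand opposite to TAS3 is shown with the matching sites, bases that differ from it in capitals. The stretch was taken as the one that best matches ARF2, ARF3 and ARF4, so its match to them follows from that choice. Each of ARF3 and ARF4 has another site with 2 differences.
TAS3, opposite strand (chr3:5862205-5862225, minus strand): gggtcttacaaggtcaagaaa
ARF3 (chr2:14325941-14325961, minus strand): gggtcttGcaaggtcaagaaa
ARF4 (chr5:24309507-24309527, minus strand): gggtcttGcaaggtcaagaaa
ARF3 had 19.9 FPKM in GmPSKγ1 and 17.4 FPKM in GmPSKγ1tc, a ratio of 1.15 (counting interval 1.04 to 1.26). ARF4 had 12.8 FPKM in GmPSKγ1 and 13.9 FPKM in GmPSKγ1tc (0.823 to 1.03), an interval that included 1. Which intervals lay off 1 depended on the scaling. By the median ratio of the libraries, that of ARF3 lay above 1 and that of ARF4 below. Without the 50 most abundant genes, that of ARF3 included 1 and that of ARF4 lay below. TAS3 itself had 7.23 FPKM in GmPSKγ1 and 7.35 FPKM in GmPSKγ1tc (0.743 to 1.29). The 7 miR160 and miR167 precursor genes had at most 6 reads each in either library, as in MIR160B and MIR167B, each with 2 reads in GmPSKγ1 and 3 reads in GmPSKγ1tc, too few to compare, and precursor reads do not measure the mature miRNA.

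**Figure D4:**
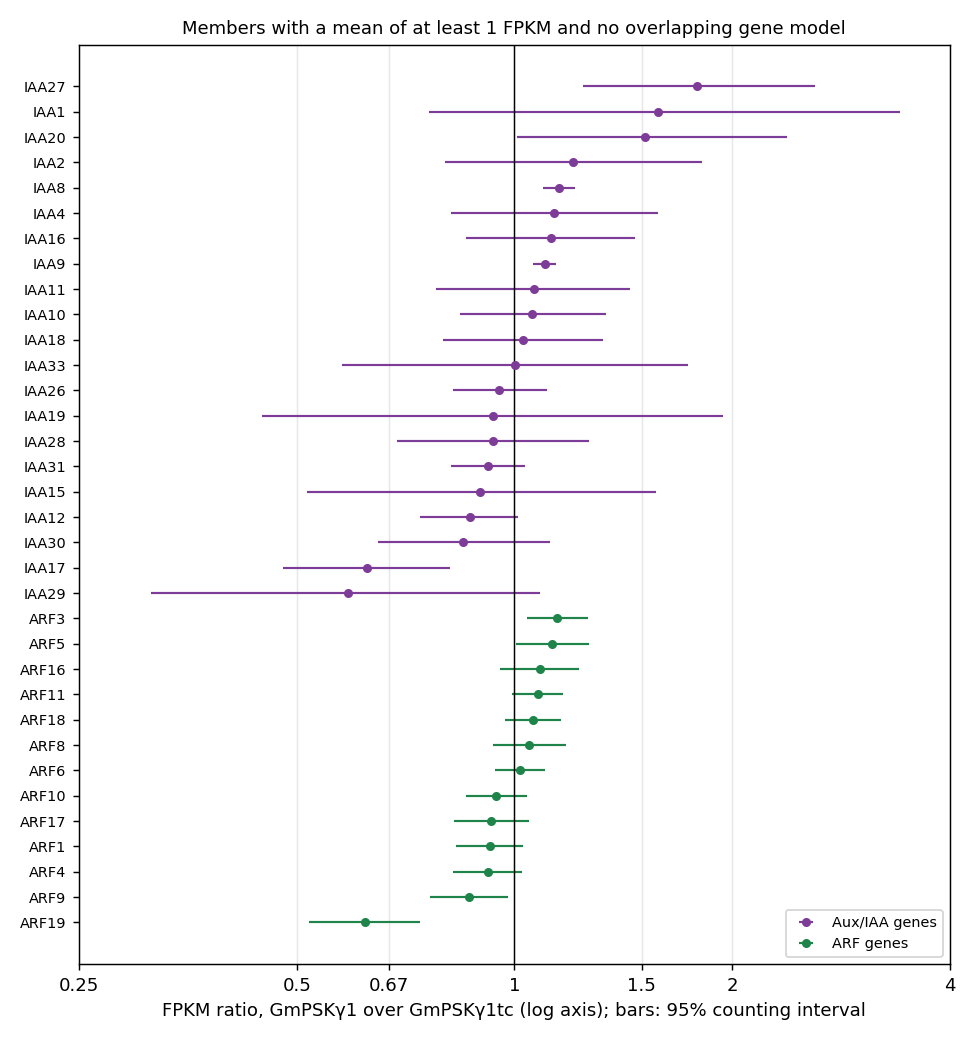
FPKM ratio of GmPSKγ1 over GmPSKγ1tc (log axis) for the 34 members that reached a mean of 1 FPKM and have no overlapping model; bars are 95% counting intervals, which leave out the spread between plants. Of the intervals, 6 lie above 1 (IAA27, IAA20, IAA8, IAA9, ARF3 and ARF5) and 3 below (IAA17, ARF19 and ARF9).

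Counting intervals lay above 1 for 6 of these 34 members (17.6%) and below 1 for 3 (8.82%). Over the 14636 genes with such an interval, 23.6% lay above 1 and 14.9% below. The balance depends on the scaling: by the median ratio of the libraries 20.6% of the members lay below 1 and 19.7% of all genes, and without the 50 most abundant genes 26.5% of the members and 22.7% of all genes.

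The other steps of the pathway were set beside the members, from lists made from general knowledge. Over all genes compared, 5.81% were at least 1.5-fold different, and 10320 of 17816 were higher. At that share, lists this short would hold few calls or none. None of 13 genes of auxin receptors and their ubiquitin ligase was 1.5-fold different (5 higher, 8 lower, median -0.04). The most abundant was SKP1, a subunit of the ligase, with 230.2 FPKM in GmPSKγ1 and 201.5 FPKM in GmPSKγ1tc, and TIR1, the best known of the receptors, had 25.2 FPKM in GmPSKγ1 and 23.2 FPKM in GmPSKγ1tc. RCE1, which encodes an enzyme that attaches the small modifier RUB to the ligase, had 56.5 FPKM in GmPSKγ1 and 79.2 FPKM in GmPSKγ1tc (ratio 0.713, interval 0.656 to 0.775). Among 5 TOPLESS corepressor genes, 4 were lower and 1 higher, none by 1.5-fold; the most abundant, TPR2, had 34.6 FPKM in GmPSKγ1 and 34.6 FPKM in GmPSKγ1tc, TPR3 had 15.7 FPKM in GmPSKγ1 and 18.5 FPKM in GmPSKγ1tc, and TPR4 had 21.8 FPKM in GmPSKγ1 and 23.2 FPKM in GmPSKγ1tc. Of the 9 ARF genes that are not members, ARF2 had 50.8 FPKM in GmPSKγ1 and 58.0 FPKM in GmPSKγ1tc, more than any member ARF, and the other 8 had at most 2 reads in either library.

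The lists of GH3 genes, SAUR genes and ARF target transcription factors each had values on both sides of 0. Of 7 GH3 genes, whose products mostly link auxin to amino acids, 5 were compared, with 4 higher and 1 lower. Their median log2 ratio was 0.26, beside 0.05 over all genes compared. GH3.3 had 10.4 FPKM in GmPSKγ1 and 6.51 FPKM in GmPSKγ1tc (ratio 1.60, interval 1.35 to 1.90). It was the 1 gene of these lists past 1.5-fold on the scale of FPKM + 1 (log2 ratio 0.60). Over all genes compared, 3.13% were higher by that size. GH3.6 had 4.90 FPKM in GmPSKγ1 and 3.02 FPKM in GmPSKγ1tc (ratio 1.62, interval 1.26 to 2.09; log2 ratio 0.55 with the added 1), and GH3.2, the most abundant, had 13.2 FPKM in GmPSKγ1 and 10.8 FPKM in GmPSKγ1tc (1.06 to 1.41). Among 7 target transcription factor genes 2 were higher and 4 lower, 1 being listed at 0. HAT2, a homeobox factor known to be auxin-inducible and 1 of the 2 higher, had 21.9 FPKM in GmPSKγ1 and 14.8 FPKM in GmPSKγ1tc (1.28 to 1.72). HB-8, a target of ARF5 in vascular tissue, had 2.87 FPKM in GmPSKγ1 and 3.39 FPKM in GmPSKγ1tc. Of 11 SAUR genes 7 were listed at 0 in both libraries and 2 were above 1 FPKM, SAUR32 with 35.5 FPKM in GmPSKγ1 and 33.6 FPKM in GmPSKγ1tc, and SAUR36 with 6.11 FPKM in GmPSKγ1 and 7.17 FPKM in GmPSKγ1tc.

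**Figure D5:**
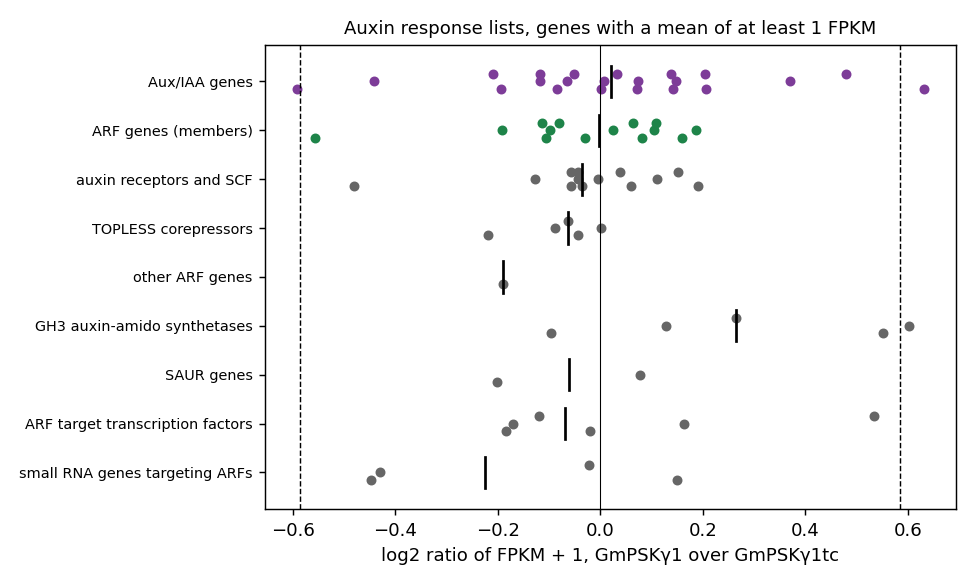
Log2 ratio of FPKM + 1 (GmPSKγ1 over GmPSKγ1tc) for the genes of a mean of 1 FPKM or more in each list of the auxin response; each point is a gene, the upright bar is the list's median and dashed lines mark 1.5-fold. The GH3 genes have the median farthest to the right, at 0.26, and IAA27, GH3.3 and IAA17 are the points beyond the dashed lines.

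Markers of seed tissues were present in both libraries. Of 4 storage and maturation genes 2 were higher and 2 lower, among them CRA1 with 8831 FPKM in GmPSKγ1 and 6493 FPKM in GmPSKγ1tc, and SESA3 with 27050 FPKM in GmPSKγ1 and 34810 FPKM in GmPSKγ1tc. Embryo markers summed to 65.4 FPKM in GmPSKγ1 and 64.8 FPKM in GmPSKγ1tc, with LEC1 higher (ratio 1.26) and ATML1 and STM lower (0.922 and 0.866). Endosperm markers summed to 3667 FPKM in GmPSKγ1 and 4288 FPKM in GmPSKγ1tc, nearly all of it EPR1 (ratio 0.854). Of these 4 genes 3 were lower and 1, ALE1, was higher (1.17). Seed coat markers summed to 864.2 FPKM in GmPSKγ1 and 923.2 FPKM in GmPSKγ1tc, mostly TT10 (ratio 0.875). Of these 4 genes 2 were higher and 2 lower, among them BAN (1.29) and STK (0.796). Of the 4 silique wall regulators, FUL had 0.432 FPKM in GmPSKγ1 and 0.231 FPKM in GmPSKγ1tc and IND 0.239 FPKM in GmPSKγ1 and 0 in GmPSKγ1tc, while SHP1 and SHP2, which seeds also express, summed with them to 119.9 FPKM in GmPSKγ1 and 133.1 FPKM in GmPSKγ1tc. The 3 pollen markers summed to 6.97 FPKM in GmPSKγ1 and 8.71 FPKM in GmPSKγ1tc, nearly all of it VGD1 (ratio 0.728) and AGL30 (0.869). The part of these differences in the members' ratios was not tested.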

How the data were processed

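RNA of 10 DAP seeds was sequenced as 1 library per genotype, from 3 pooled lines, per the labels' design text. The authors deposited FPKM per gene model; Bowtie 0.12.2 and build TAIR10 are named, per the submitters' processing notes. For the program behind the FPKM, the use of strand and reads with several positions, the answer is not given in the sources used here. Both files list the same 33602 models, of which 32835 matched a RefSeq locus tag (assembly TAIR10.1), as did 43 of 43 members. Gene coordinates are those of the files. Sequences and their positions come from the RefSeq genome and annotation, TAIR10.1, using for each gene the transcript with the longest coding sequence; 10599 models have the same ends in both. Site searches took the window with the fewest mismatches, counting G:U pairs as mismatches.

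Reads were estimated as FPKM times exon length divided by the step between low values (0.0610 and 0.0653 FPKM × kilobase in GmPSKγ1 and GmPSKγ1tc). Among single-exon models below 200 reads, 99.5% of values were whole within 0.05 in each library, where chance gives 10%. Exon lengths come from the reference, cut to the deposited ends, so reads are approximate for most members: of 20 members with reads below 200 in both libraries, 12 came out whole in both. Ratio intervals are exact for given counts (Clopper-Pearson, 95%) and do not cover error in the estimated reads. Models that overlap another (4329, among them IAA13 and ARF7) have none. With no molecular identifiers, the reads are not independent molecules, so the intervals cover counting error only. The ratio was log2 of FPKM plus a pseudocount of 1, with a minimum mean of 1 FPKM and a size of 1.5-fold (the limit of 0.2 on the log2 ratio for members near 0 was chosen after seeing the data); it understates differences of low genes. Members, lists, tests and the naming rule (all members; from each other list the most abundant gene and the 2 with the largest absolute ratio) were chosen with earlier results of these data known. TIR1, FUL and IND, outside that rule, were named for their role, and WOX2 to complete the embryo markers. IAA3, IAA7, IAA32 and IAA34, below the minimum, are given with values to account for every member. Alternatives were other pseudocounts, minimums, thresholds and rescalings, and leaving out overlapping models. Python 3.11.15, pandas 2.3.3, numpy 2.4.6, scipy 1.17.1 and matplotlib 3.10.9 were used.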

Additional observations from a re-analysis of the deposited data

How the results depend on the processing

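The median log2 ratio stayed between -0.05 and 0.03 for the Aux/IAA genes and between -0.07 and 0.05 for the ARFs under every alternative run. The single calls were less stable. With a pseudocount of 0.1, 3 Aux/IAA genes were at least 1.5-fold higher (IAA27, IAA1 and IAA20), 2 lower (IAA17 and IAA29), and 1 ARF lower (ARF19), while 945 of all 17816 genes were higher and 697 lower. With a pseudocount of 5 or a threshold of 2-fold, 0 Aux/IAA genes passed in either direction. With a minimum mean of 5 FPKM, and with the 50 most abundant genes left out of the scaling, 0 Aux/IAA genes were higher, in the first case because IAA27 was no longer compared. ARF19 was the 1 ARF called lower under each of the 3 rescalings. Over all genes, the number higher was 945, 146, 322, 73 and 368 with a pseudocount of 0.1, a pseudocount of 5, a minimum of 5 FPKM, a threshold of 2-fold and scaling without the 50 most abundant genes, in place of 557. The number lower was 206, 281 and 146 with a pseudocount of 5, a minimum of 5 FPKM and a threshold of 2-fold, in place of 478. The minimum of 5 FPKM left 13398 genes to compare in place of 17816. The libraries' ratio in the rescalings was at most 0.08 on the log2 scale, and the balance of all genes changed: by the median ratio, 432 were higher and 565 lower. Scaling each library to a sum of 1000000 raised FPKM in both, so the pseudocount weighed less and more genes, 18500, reached the minimum. Of these, 737 were higher and 584 lower.

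Rescaling of the counting intervals was chosen after seeing the data. Intervals above 1 numbered 4 members by the median ratio and 3 without the 50 most abundant genes (IAA27, IAA8 and IAA9), in place of 6, beside 18.2% and 15.6% of all genes with an interval. Intervals below 1 numbered 7 and 9, in place of 3, beside 19.7% and 22.7% of all genes. Those added were IAA12, IAA31, ARF1 and ARF4 in both cases, and ARF10 and ARF17 only without the 50 most abundant genes. IAA27, IAA8 and IAA9 stayed above 1, and IAA17, ARF19 and ARF9 below, under all 3 rescalings. The sign of 5 members near a ratio of 1 (ARF6, ARF8, IAA13, IAA18 and IAA33) changed on rescaling. That of ARF8 changed only without the 50 most abundant genes, the others also by the median ratio. These rescalings took out a library ratio of 0.08 and 0.05 on the log2 scale. No paired analysis was possible because there is 1 library per genotype, and for the same reason no library was left out in turn. Of the 7 Aux/IAA genes below a mean of 1 FPKM, 3 were listed at 0 in both libraries, and whether greater depth would detect them was not tested.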
